A study of Mus musculus with 12 samples.

Results

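Layer 6 corticothalamic (L6 CT) nuclei of the mouse motor cortex were selected on their measured counts of marker genes and of 13 immediate early genes, and those with many and with none of the latter were compared within each mouse. A nucleus was taken as L6 CT when it had at least 500 detected genes, at least 2000 unique molecular identifiers (UMIs, each marking 1 captured RNA molecule), at least 2 UMIs of Slc17a7, at most 1 UMI of Gad1 and Gad2 together, at least 5 UMIs of Foxp2 and at least 3 UMIs of Syt6, Rprm, Cpa6 and Thsd7b together. Of 51926 barcodes, 42624 passed the limits on genes and UMIs and 2235 met the whole gate, between 281 and 608 per mouse. Each nucleus was thinned at random to 2000 UMIs, and the UMIs of Fos, Fosb, Junb, Arc, Egr1, Egr3, Egr4, Npas4, Nr4a1, Nr4a3, Ier2, Dusp1 and Btg2 were summed. The 415 nuclei with 3 or more such UMIs are called high (41 to 88 per mouse), the 905 with 0 are called silent (68 to 267 per mouse) and the 915 with 1 or 2 intermediate. The high and silent nuclei together made 1320 of the 51926 barcodes.

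The nuclei came from the caudal forelimb area of the right primary motor cortex of 6 mice aged 13 weeks, measured by droplet-based 3' single-nucleus RNA sequencing of frozen tissue cut from slices. All 6 mice were on restricted water. Mice 2, 4 and 6 (trained) earned part of that water by pressing a lever with the left paw on days 11 to 13, while head-fixed, and mice 1, 3 and 5 (control) stayed in the home cage. Neither strain, genotype nor sex is stated in the labels.

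L6 CT neurons are glutamatergic cells of the deepest cortical layer whose axons run to the thalamus, where they modulate relay and reticular neurons. Immediate early genes are transcribed within minutes of synaptic input and calcium entry, through factors such as CREB, SRF and MEF2 that are already present in the nucleus. Several encode transcription factors that then act on a later set of genes, among them secreted peptides, synaptic scaffolds and signalling regulators. Nuclear RNA reads such programmes close to transcription.

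The gated nuclei carried RNAs known for the class, among them genes of the gate itself. In CPM (counts scaled to a common library total), Foxp2 stood at 818 in L6 CT nuclei and 128 over all barcodes, Syt6 at 137 and 21.5, Tle4 at 575 and 185, and Hs3st4 at 2837 and 531. Cux2 of the upper layers was at 11.5 CPM in L6 CT nuclei, Gad1 of interneurons at 3.66 and Aqp4 of astrocytes at 1.03. Other genes of outside classes were less scarce. Rorb of the middle layers was at 58.7 CPM and found in 25.2% of L6 CT nuclei (281 CPM over all barcodes). Mbp of oligodendrocytes was at 42.5 CPM and found in 27.4% (146 CPM over all barcodes). Foxp2, Syt6 and Gad1 were gate genes, so their levels follow from the selection. Tle4, Hs3st4, Cux2, Rorb, Mbp and Aqp4 were not in the gate. Ntsr1, a further L6 CT marker, was close to 0, with 48 UMIs in all silent and 11 in all high nuclei. The 6 mice held 46798359 to 91495029 UMIs. No L6 CT nucleus shared its barcode sequence with an L6 CT nucleus of another mouse. Scrublet marked 204 L6 CT nuclei (9.13%) as doublets, against 4.63% of all barcodes scored.

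The 13 genes were not spread evenly over the nuclei. The mean was 1.41 UMIs per 2000 with a variance of 3.86, and the highest nucleus held 22. In the high nuclei, Egr1 gave 16.9% of the rule-gene UMIs, Arc 16.4%, Junb 15.0% and Nr4a1 11.0%, while Npas4 gave 4.34% and Fosb 1.09%. Of the 415 high nuclei, 161 held 4 or more of the genes, 164 held 3, and 8 reached the limit on 1 gene alone. Because these values chose the nuclei, they are given as a description with no test. Over 6 mice, Fos ranged from 6.04 to 15.2 CPM (median 8.24) in silent nuclei and from 78.1 to 127 CPM (median 87.5) in high nuclei. Arc, a regulator of synaptic AMPA receptors, ranged from 44.3 to 68.3 CPM (median 49.4) and from 222 to 306 CPM (median 258). Npas4, an activity-dependent transcription factor of neurons, ranged from 3.97 to 10.01 CPM (median 6.27) and from 78.1 to 122 CPM (median 90.5).

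Silent means none among the 2000 UMIs drawn, not none in the nucleus. Of the 905 silent nuclei, 748 held rule-gene UMIs outside the draw, and 157 held none at all. In the UMIs that thinning left out, rule genes stood at 318 CPM in nuclei with a draw of 0, 520 CPM at 1, 854 CPM just below the limit at 2, 1063 CPM just inside it at 3, and 1503 CPM at 4. A different random draw put 243 of the 415 high nuclei (58.6%) in the high set again and 27 in the silent set, and it kept 574 of the 905 silent nuclei (63.4%). The states are the ends of a graded measure, and many nuclei lie near a limit.

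**Figure D1:**
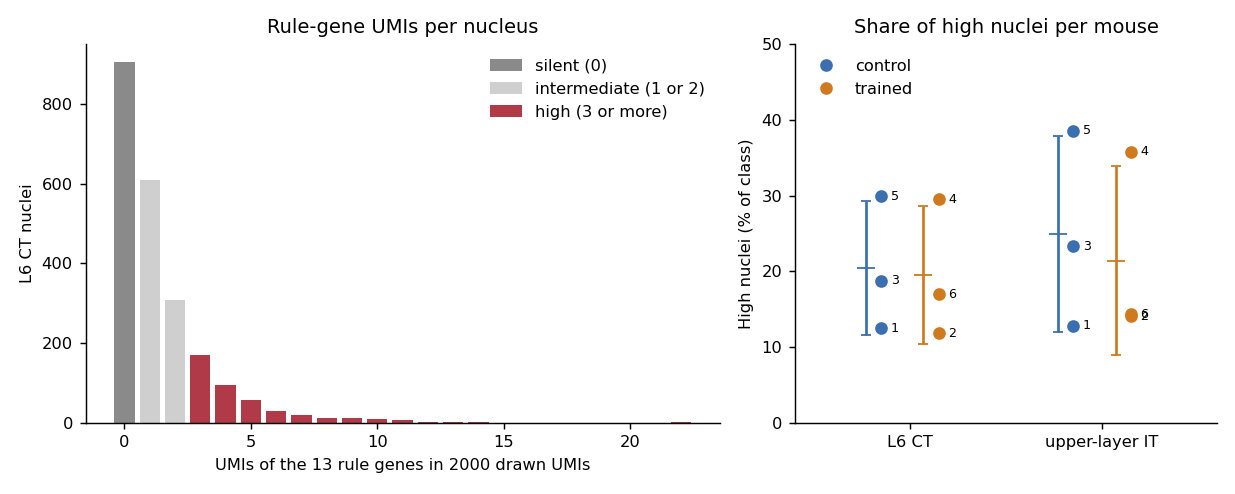
Left, number of L6 CT nuclei (y axis) by the UMIs of the 13 rule genes among 2000 drawn UMIs (x axis); 905 nuclei lie at 0 and the tail reaches 22. Right, percentage of nuclei that are high in L6 CT and upper-layer IT nuclei, with a point for each mouse labelled by its number and bars for the mean ± SD of 3 mice; control and trained mice overlap in both classes.

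High nuclei made up 12.5%, 18.75% and 29.9% of L6 CT nuclei in control mice 1, 3 and 5, and 11.8%, 29.5% and 17.0% in trained mice 2, 4 and 6. The 95% exact binomial interval ran from 8.64 to 15.7% for the lowest of these shares (mouse 2) and from 24.8 to 35.5% for the highest (mouse 5), covering counting error only. The groups overlapped. Means were 20.4% ± 8.83 for the 3 control mice and 19.5% ± 9.10 for the 3 trained mice (SD), and a two-sided exact permutation test gave p = 0.7, with 0.1 as the lowest p that 3 against 3 mice allow. The sign of the difference turned to positive without control mouse 5 (3.84 percentage points), without trained mouse 2 (2.87) and without trained mouse 6 (0.300). Oligodendrocyte nuclei, gated on myelin genes such as Mbp, Mog and Mobp and thinned alike, were high in 1.69 to 4.46% per mouse, at a median of 2622.5 UMIs against 10888 in L6 CT nuclei before thinning. In upper-layer intratelencephalic (IT) nuclei, gated on at least 5 UMIs of Cux2 and Rorb and few of the L6 CT genes, the share was 23.1% ± 11.5 against 19.9% ± 8.04 in L6 CT nuclei of the same 6 mice (SD). L6 CT nuclei had the larger share in 1 of 6 mice, and the paired difference was -3.21 percentage points (p = 0.156 by a two-sided exact permutation test, in which 0.0312 is the lowest p possible).

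Outside the rule, most tested members of the lists of other immediate early and later activity genes were higher in high nuclei, and the lists of receptors and ion channels held calls in both directions. UMIs were summed per mouse and state, and high and silent sums of the same mouse were compared by edgeR's quasi-likelihood test with mouse as a block. Of 8460 genes tested, 623 (7.36%) were higher and 412 (4.87%) lower in high nuclei at an adjusted p under 0.05. The median change among these calls was 1.42-fold for the higher and 1.34-fold for the lower genes, and 49 of the 623 and 27 of the 412 differed by 2-fold or more. All 6 mice moved the same way for 460 of the higher calls, where 8.27% of tested genes were above silent in every mouse, and for 276 of the lower calls, where 6.99% were below. For 157 of the higher calls all 6 high sums lay above all 6 silent sums, as they did for 1.9% of tested genes. In intermediate nuclei, which entered no test, the mean lay between silent and high for 606 of the higher (97.3%) and 382 of the lower genes (92.7%), against 56.1% of all tested genes. Called genes were chosen for a gap between silent and high, and all tested genes were not, so these shares are a description only. DESeq2 called 304 higher and 145 lower, and silent nuclei matched to the high ones on UMIs gave 331 and 158 of 7721 tested. Leaving out control mouse 1 gave 396 and 245, and leaving out trained mouse 2 gave 490 and 252.

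The states overlapped in depth. The median UMIs per nucleus were 10553 ± 831 in high and 10666 ± 1709 in silent nuclei (SD over 6 mice), with high above silent in 2 of 6 mice. The mitochondrial share of UMIs averaged 0.0210% in high and 0.0191% in silent nuclei and was larger in high nuclei in 5 of 6 mice. Its part in the gene differences was not tested. The doublet share averaged 8.08% and 8.88%. The median summed level of the markers of 13 other classes ran from 2.63 to 105 CPM in silent and from 2.67 to 90.4 CPM in high nuclei, against 5928 and 5666 CPM for 9 L6 CT markers, some of them gate genes. The 7 interneuron markers summed to 72.8 to 156 CPM in high and 81.7 to 126 CPM in silent nuclei, the 5 astrocyte markers to 40.2 to 119 and 50.9 to 101 CPM, and the 5 microglial markers to 54.3 to 79.0 and 46.0 to 74.0 CPM, the last higher in 5 of 6 mice. The 4 L6b markers were higher in 5 of 6 mice, at 3.96 to 49.6 against 0 to 13.0 CPM. Ctgf carried most of that sum, with a mean of 18.9 against 3.73 CPM. Moxd1 averaged 1.34 against 0.229 CPM, with a median of 0 in both states. Nxph4 was at 0 in every sum and Cplx3 averaged under 1 CPM in both states (0.808 and 0.437). The markers of L6 IT (median 8.30 CPM in silent and 4.84 in high nuclei), L5 extratelencephalic (13.5 and 6.62) and oligodendrocyte precursor nuclei (10.1 and 3.25) were higher in high nuclei in 1 of 6 mice each. The part of these markers in the gene differences was not tested.

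The increase of smallest p was that of Homer1, a postsynaptic scaffold gene with a short form known to be induced by activity. Its level ranged from 438 to 768 CPM (median 566) in the 6 silent sums and from 1557 to 2625 CPM (median 1905) in the 6 high sums. The 6 high sums lay apart from the 6 silent sums, and the log2 fold change was 1.77 ± 0.061 (SE; adjusted p = 2.62e-20 by edgeR, higher in 6 of 6 mice). The counts do not separate its forms. Nr4a2, an orphan nuclear receptor of the same family as 2 rule genes, ranged from 4.21 to 9.48 CPM (median 6.20) and from 60.1 to 148 CPM (median 74.8). Here too the states were apart, with a log2 fold change of 3.79 ± 0.18. Cyr61, which encodes a secreted matrix-associated protein, had the largest fold change among the calls, 4.43 ± 0.23 on the log2 scale. It ranged from 0.567 to 8.41 CPM in silent and from 56.1 to 101 CPM in high nuclei. Tiparp, an ADP-ribosyltransferase, ranged from 10.2 to 25.8 CPM and from 90.1 to 160 CPM, with a log2 fold change of 2.82 ± 0.14.

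Among the other leading genes, Ndfip2, an adaptor of Nedd4-type ubiquitin ligases, rose from 158 ± 10.6 to 386 ± 42.8 CPM (SD, n = 6), and Cpeb3, which binds messenger RNAs and regulates their translation, from 358 ± 22.6 to 707 ± 113 CPM. Chgb, a granin of secretory granules, went from 263 ± 59.3 to 594 ± 56.3 CPM. Pcsk1, the convertase that cuts prohormones, ranged from 12.1 to 46.0 CPM in silent and from 78.4 to 198 CPM in high nuclei. Ntrk2, the receptor of brain-derived neurotrophic factor, went from 594 ± 140.2 to 1076 ± 263 CPM. It was higher in each mouse, although its lowest high sum (756 CPM) lay below its highest silent sum (798 CPM). Gm47423, on the opposite strand inside Ntrk2, went from 11.0 to 49.1 CPM, and counts of the pair can be told apart only if counting used the strand. Rheb, the GTPase that activates mTORC1, Arl5b, an ARF-like GTPase, Ina, a neurofilament subunit, Zdbf2, an imprinted zinc finger gene, and Cx3cl1, the chemokine fractalkine, had log2 fold changes of 1.21, 1.83, 1.31, 1.67 and 0.94.

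**Figure D2:**
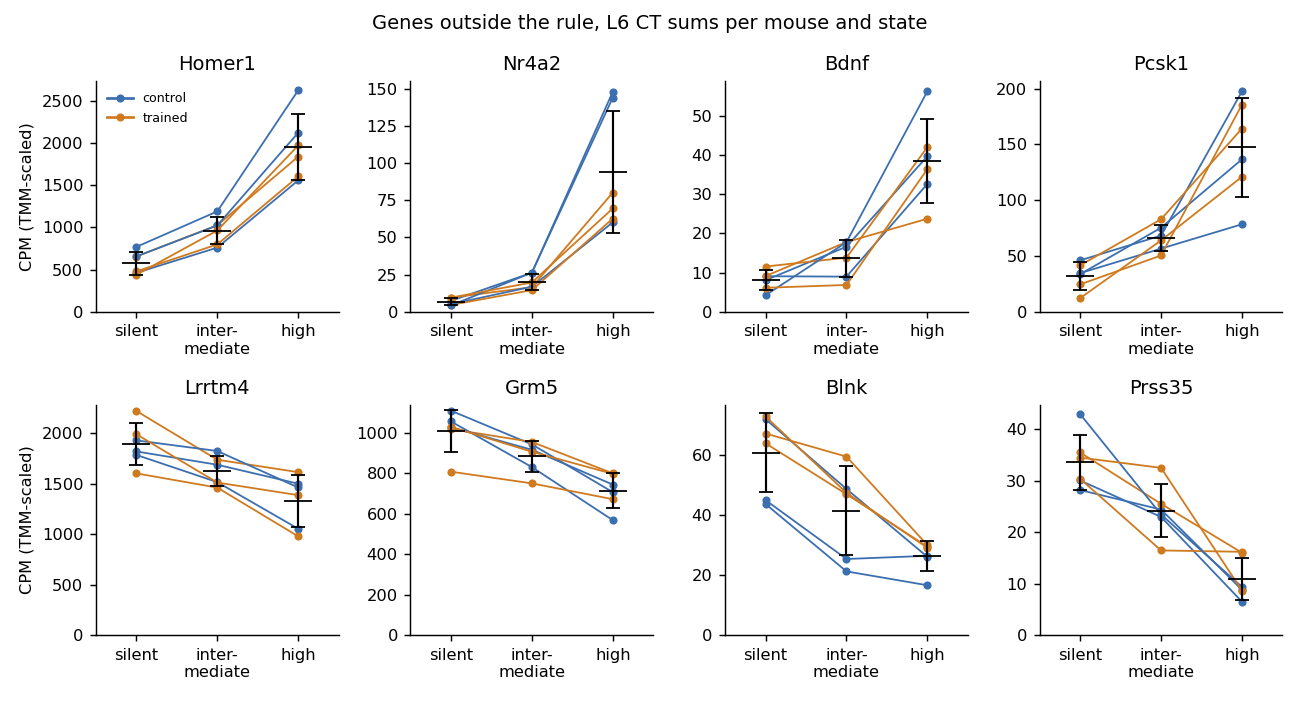
TMM-scaled CPM (y axis, linear from 0) of 8 genes outside the rule in silent, intermediate and high L6 CT sums; each line is a mouse, black bars are mean ± SD over 6 mice. Homer1, Nr4a2, Bdnf and Pcsk1 were higher in high than in silent nuclei in all 6 mice, and Lrrtm4, Grm5, Blnk and Prss35 were lower in all 6.

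The cyclic AMP response element (CRE), TGACGTCA, is the palindrome bound by CREB, and promoters of called genes were searched for it. In the RefSeq promoters (GRCm38.p6, 250 bases before to 50 after each start), 480 of the 623 higher genes had an entry, and 36 of them (7.50%) held the 8 letters. The share was 2.58% of 310 matched lower genes, 4.03% of 6474 matched tested genes and 2.03% of all 27025 genes in the promoter table. Counted by promoter, the shares were 5.81% for higher, 2.07% for lower and 3.31% for tested genes, and 1.79% of all 32851 promoters. TGACTCA or TGAGTCA, the AP-1 motif, was in 3.54% of higher, 5.48% of lower and 3.86% of tested genes, and the CArG box of SRF in 3.12%, 2.90% and 1.61%. Both strands were searched, none of these motifs contains another, and a match is not evidence of binding. Of the rule genes, 9 of 13 had a promoter entry, and Btg2 and Dusp1 held the CRE. The CRE was found in 4 of the leading genes, whose 150 bases before the start site are printed 5′ to 3′ with the CRE in capitals, since they show where it lies.
Chgb, chr2:132781492-132781641, + strand: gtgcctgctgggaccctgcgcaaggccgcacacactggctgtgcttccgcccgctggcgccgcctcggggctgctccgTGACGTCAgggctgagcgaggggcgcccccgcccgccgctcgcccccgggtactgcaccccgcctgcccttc
Pcsk1, chr13:75089707-75089856, + strand: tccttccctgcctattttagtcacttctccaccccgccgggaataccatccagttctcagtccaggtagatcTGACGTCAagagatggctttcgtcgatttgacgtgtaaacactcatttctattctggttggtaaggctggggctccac
Arl5b, chr2:15055170-15055319, + strand: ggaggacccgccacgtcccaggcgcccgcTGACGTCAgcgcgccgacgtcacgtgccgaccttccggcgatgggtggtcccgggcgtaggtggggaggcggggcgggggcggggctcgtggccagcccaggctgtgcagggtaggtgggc
Zdbf2, chr1:63273119-63273268, + strand: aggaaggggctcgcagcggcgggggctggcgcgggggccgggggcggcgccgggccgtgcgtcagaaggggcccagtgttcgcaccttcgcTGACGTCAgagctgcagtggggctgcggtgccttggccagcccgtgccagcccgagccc
The CRE began 72 bases before the start of Chgb, 78 before Pcsk1, 121 before Arl5b and 59 before Zdbf2.

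Immediate early genes that the rule did not use were mostly higher in high nuclei. Of 36 such genes in the matrix, 24 had enough counts to be tested, 18 were higher and 0 lower, and the median log2 fold change of the tested members was 0.87 (all tested genes -0.0085). A gene can pass the count filter through its high sums alone, so these numbers describe the tested members only. The shares over all tested genes, 7.36% higher and 4.87% lower, are the background of this and the later list counts. In the other settings tried, 2 (with sums of thinned counts) to 23 members were called higher, and 6 with Foxp2 of at least 10. Fosl2, an AP-1 subunit, was at 0 to 5.77 CPM (median 2.12) in silent and 16.7 to 26.5 CPM (median 24.7) in high nuclei. Gadd45b, a stress- and activity-induced gene linked to DNA demethylation, was at 1.52 to 6.67 and 13.2 to 46.1 CPM. The 2 states did not overlap for either gene. Trib1, a pseudokinase, and Dusp6, a phosphatase of ERK, had log2 fold changes of 1.69 and 1.70, and Per1, which belongs both to the clock and to the CREB targets, of 1.28. Midn, Plk3, Fbxo33, Mcl1, Errfi1, Ier5, Jund, Klf10, Arf4 and Plk2 passed with values from 1.39 down to 0.45. By edgeR, the calls of Plk2, Errfi1 and Mcl1 ended without control mouse 1 (adjusted p = 0.0697, 0.103 and 0.0657), and that of Errfi1 also without trained mouse 6 (0.0709). DESeq2 did not call these genes either (adjusted p = 0.0837, 0.127 and 0.0763). With silent nuclei matched on UMIs, Plk2 and Errfi1 did not pass by edgeR (adjusted p = 0.187 and 0.0933). The call of Klf10 ended in 3 of 18 other settings, that of Ier5 in 2 and that of Arf4 in 1. Jun did not pass (log2 fold change 0.60, adjusted p = 0.16 by edgeR), nor did Ier3 (0.81), Fosl1 (0.39), Srf (0.23), Ier5l (0.20) and Klf6 (0.013).

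Of later activity genes, 18 of 22 tested members were higher and 1 lower, with a median log2 fold change of 1.00. In the other settings tried, 6 (with sums of thinned counts) to 22 were called higher. Bdnf, the neurotrophin that binds the Ntrk2 product, ranged from 4.21 to 11.5 CPM (median 8.56) in silent and from 23.8 to 56.3 CPM (median 38.1) in high nuclei. No high sum reached down to a silent sum, and the log2 fold change was 2.27 ± 0.21 (adjusted p = 2.65e-09 by edgeR). Nptx2, a pentraxin released at excitatory synapses, ranged from 11.5 to 21.9 and from 38.6 to 108 CPM. Nrn1, a membrane-anchored growth factor, and Scg2 and Vgf, precursors of neuropeptides, had log2 fold changes of 1.18, 1.17 and 0.82. Grasp, Rgs4, Kdm6b, Crem, Stk40, Syt4, Spred1 and Rasgrp1 also passed, from 1.27 to 0.36. Crem encodes a CRE-binding factor, Kdm6b a histone demethylase and Rgs4 a regulator of G protein signalling. Sorcs3, Fndc3a and Acvr1c did not pass, at -0.22, -0.19 and -0.13. Blnk was the member that fell: this adaptor of B cell receptor signalling ranged from 43.7 to 72.9 CPM (median 65.6) in silent and from 16.7 to 30.0 CPM (median 27.8) in high nuclei, a log2 fold change of -1.19 ± 0.14.

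**Figure D3:**
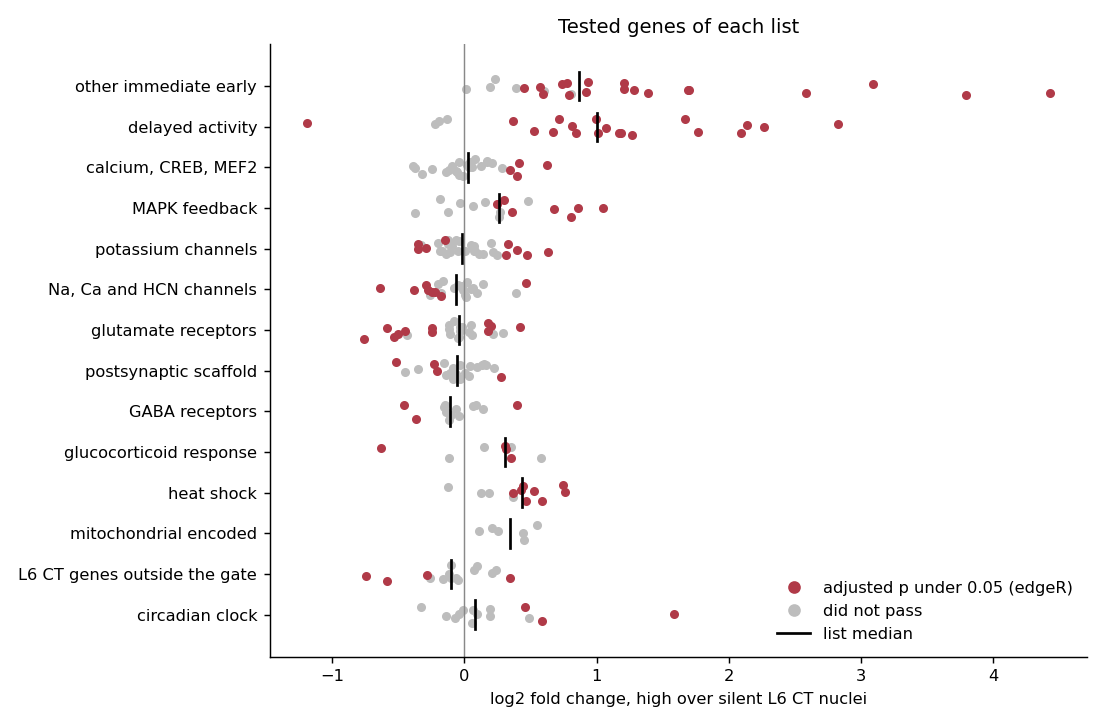
Log2 fold change of high over silent L6 CT nuclei (x axis) for each tested gene of 14 lists (rows), red where the adjusted p was under 0.05 by edgeR, with the list median as a black line. The other immediate early genes (median 0.87) and the delayed activity genes (median 1.00) lie to the right, and the channel and receptor lists lie around 0 with calls on both sides.

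Among the leading lower genes, Lrrtm4, a leucine-rich repeat adhesion protein of excitatory synapses, ranged from 1604 to 2222 CPM (median 1876) in silent and from 981 to 1616 CPM (median 1427) in high nuclei. The ranges overlapped between mice, but the level was lower in the high nuclei of each mouse, with a log2 fold change of -0.52 ± 0.054 (adjusted p = 2.84e-08 by edgeR). Cntnap4, of the neurexin superfamily, fell from 131 ± 30.9 to 53.9 ± 29.6 CPM (SD, n = 6), and Sdk1, an adhesion protein of the immunoglobulin superfamily, from 348 ± 60.8 to 215 ± 68.2 CPM. Epha6, an ephrin receptor, had a log2 fold change of -1.05 ± 0.12, but with silent nuclei matched on UMIs it was -0.26 and did not pass (adjusted p = 0.462 by edgeR). Dgkb, a diacylglycerol kinase, went from 213 ± 42.1 to 111 ± 22.3 CPM, Arhgef28, a guanine nucleotide exchange factor, from 42.7 ± 7.85 to 17.4 ± 2.32 CPM, and Sphkap, an anchor of protein kinase A, from 170 ± 35.4 to 100.4 ± 28.8 CPM. St6galnac5, a sialyltransferase, and Prss35, a serine protease-like gene, had log2 fold changes of -1.07 and -1.65. Pigk, which overlaps St6galnac5 on the opposite strand, averaged 75.2 CPM in silent and 59.5 CPM in high nuclei.

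Glutamate receptor genes went both ways, with 4 of 26 tested higher, 7 lower and a median of -0.044. The metabotropic receptor gene Grm5 ranged from 807 to 1108 CPM (median 1028) in silent and from 568 to 799 CPM (median 725) in high nuclei, without overlap. Grid1 and Grm7 were lower too, at -0.54 and -0.25. Gria1, an AMPA receptor subunit, fell by 0.45 on the log2 scale while Gria2, the subunit that limits calcium entry, rose by 0.20. Grin1 and Grin2a, subunits of NMDA receptors, each rose by 0.18, and Cacng3, an AMPA receptor auxiliary subunit, by 0.42. Of 14 tested genes of GABA receptors, Gabrb1 (-0.37) and Gabra5 (-0.46) fell and Gabbr1 of the GABA-B receptor rose (0.40). The call of Gabra5 ended in 8 of 18 other settings, among them DESeq2 and, by edgeR, without control mouse 3 or control mouse 5 (adjusted p = 0.0921 and 0.13), and its log2 fold change was -0.27 with silent nuclei matched on UMIs. Of 24 tested scaffold and adhesion genes, Lrrtm4, Lrfn2 and Lrfn5 fell, Dlg1 rose (0.28) and 20 did not pass, where 4.87% of all tested genes were lower and 7.36% higher. Homer1 was counted with the later activity genes and not among these 24. The call of Lrfn5 ended in 5 of 18 other settings, among them matched silent nuclei, and that of Dlg1 in 3.

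Ion channel genes gave calls of modest size. Of 24 tested sodium, calcium, HCN and calcium release channel genes, 7 fell and 1 rose, with a median of -0.065. Ryr2, a calcium release channel of the endoplasmic reticulum, ranged from 989.5 to 1187 CPM in silent and from 797 to 941 CPM in high nuclei. Ryr3, Cacnb2, Cacna1c, Cacna1d and Cacna1e had log2 fold changes from -0.38 to -0.18. Of 32 potassium channel genes, 5 rose and 4 fell, with a median of -0.019. The silent subunit gene Kcnv1 (0.63), the leak channel genes Kcnk1 (0.47) and Kcnk2 (0.33), Kcnmb4 (0.40) and Kcnc2 (0.32) rose. The call of Kcnk1 ended in 3 of 18 other settings. Among them were sums of thinned counts (0.051, adjusted p = 0.935 by edgeR) and matched silent nuclei (0.33, adjusted p = 0.0979 by edgeR). Kcnh1, Kcnj6 and Kcnh7 fell by 0.35, 0.29 and 0.14 on the log2 scale. The call of Kcnh1 ended in 6 of 18 other settings, among them matched silent nuclei and the fit without control mouse 1 (adjusted p = 0.0754 and 0.0593 by edgeR). Over those settings, 0 to 6 potassium channel genes were called higher and 0 to 6 lower. For Kcnq5 and Cacna2d3, called at -0.35 and -0.64, the sign turned with silent nuclei matched on UMIs (0.024 and 0.28, adjusted p = 0.914 and 0.234 by edgeR).

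Of the machinery that couples calcium to transcription, 4 of 26 tested genes rose (Sik2, Rcan2, Camk1 and Sik3, from 0.62 to 0.34) and 0 fell, with a median of 0.030, where 7.36% of all tested genes rose. The call of Rcan2 ended in 7 of 18 other settings, among them DESeq2 and, by edgeR, the fits without control mouse 1, control mouse 5 or trained mouse 6 (adjusted p = 0.0686, 0.128 and 0.176), and that of Sik3 in 2. Creb1 was at a log2 fold change of 0.28 and did not pass (adjusted p = 0.12 by edgeR). Feedback genes of MAP kinase signalling rose in 7 of 16 cases and fell in 0, with a median of 0.26. The dual-specificity phosphatase genes Dusp14, Dusp3 and Dusp7 had log2 fold changes of 1.05, 0.86 and 0.68, and Spry2, an inhibitor of receptor tyrosine kinase signalling, of 0.81. Chaperone genes rose in 8 of 12 cases and fell in 0, with a median of 0.43. Hspa4 went from 76.2 ± 4.92 to 126 ± 15.6 CPM (SD, n = 6) without overlap. Hspa8 ranged from 122 to 320 and from 227 to 341 CPM, with overlap, and Dnajb5 had a log2 fold change of 0.76. Across the other settings tried, the number called higher ran from 2 to 8 for the chaperone list and from 1 to 7 for the MAP kinase list.

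Steroid and clock genes gave a few calls each. Nr3c2, the mineralocorticoid receptor, fell from 97.7 ± 7.58 to 62.6 ± 9.70 CPM, and Nr3c1, the glucocorticoid receptor, rose from 146 ± 19.5 to 187 ± 36.8 CPM (SD, n = 6). Klf9 and Zbtb16, both targets of the glucocorticoid receptor, rose by 0.31 each on the log2 scale, while Fkbp5 (-0.12) and Sgk1 (0.15) did not pass. Of 8 tested genes of the steroid list, 3 were higher and 1 lower. The calls of Klf9 and Nr3c1 ended in 3 of 18 other settings each, and that of Nr3c2 in 1. With silent nuclei matched on UMIs, Klf9 was at 0.22 and did not pass (adjusted p = 0.115 by edgeR). Of 14 tested clock genes, Ciart (1.58), Bhlhe40 (0.59) and Cry2 (0.46) rose, and Per2 (0.20), Dbp (0.20) and Arntl (-0.32) did not pass. Per1 was counted with the immediate early genes and not among these 14. The call of Bhlhe40 ended in 4 of 18 other settings, among them DESeq2 and, by edgeR, another random draw (adjusted p = 0.147). None of the 6 tested mitochondrial genes passed by edgeR or DESeq2, with 1 at an unadjusted p under 0.05 and log2 fold changes from 0.11 to 0.55. Of 15 L6 CT genes outside the gate, Tle4 rose (0.35) and Sla, Sulf1 and Zfpm2 fell (-0.74, -0.58 and -0.28). Of the gate genes, which the rule used, Foxp2 averaged 784 CPM in high and 874 CPM in silent nuclei. Cpa6 averaged 91.6 and 132 CPM, Syt6 125 and 145, Rprm 85.8 and 97.1, and Thsd7b 341 and 352. Slc17a7 went the other way, at 377 CPM in high and 328 CPM in silent nuclei. Whether the states hold different subtypes of L6 CT cells was not tested.

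Lower genes were long. The median length in the GENCODE M21 annotation of mm10 was 184 kb for the 412 lower genes (411 with a length), 23.0 kb for the 623 higher genes and 37.1 kb for all tested genes. Of 806 tested genes of 200 kb or more, 23.9% were lower and 3.85% higher. Of 2532 genes under 20 kb, 0.316% were lower and 11.4% higher. The median log2 fold change was 0.15 for the shortest and -0.14 for the longest of these classes. With tested genes split in 3 equal classes by mean abundance, the median of genes under 20 kb was 0.10, 0.18 and 0.22 from the lowest to the highest class, and that of genes of 200 kb or more was -0.21, -0.25 and -0.13. The part of gene length in the calls was not tested. Lrrtm4 (chromosome 6, 80018877 to 80810143) and Epha6 (chromosome 16, 59653483 to 60605531) are examples of long genes that fell, and Cyr61 (chromosome 3, 145646976 to 145649981) is a short gene that rose.

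**Figure D4:**
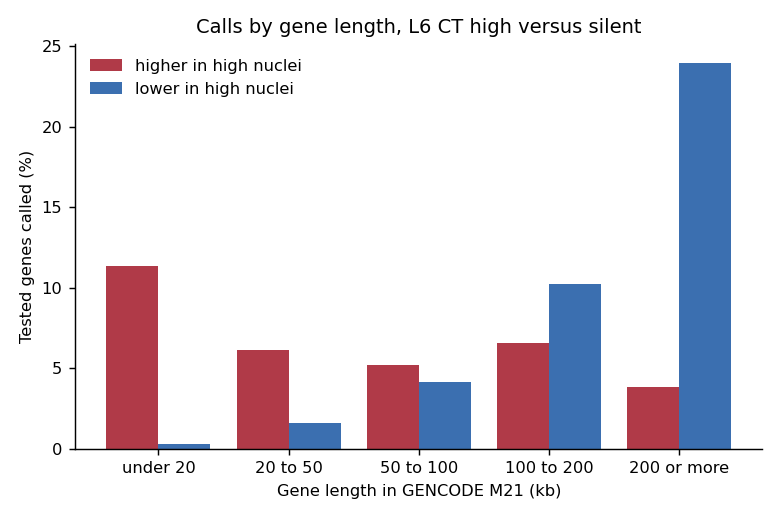
Percentage of tested genes called higher (red) or lower (blue) in high L6 CT nuclei (y axis, edgeR adjusted p under 0.05) by gene length in kb (x axis). The lower share goes from 0.316% under 20 kb to 23.9% at 200 kb or more, and the higher share from 11.4% to 3.85%.

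The same contrast in upper-layer IT nuclei (1132 high, 1772 silent), a gate that mixes several upper and middle layer types, called 1434 genes higher (12.5%) and 1051 lower (9.2%) of 11427. Of the 623 L6 CT higher calls, 426 (68.4%) were also higher in upper-layer IT nuclei, which is 29.9% of the 1426 upper-layer calls among genes tested for a difference. Of the 412 lower calls, 195 (47.3%) were shared, 19.1% of 1020. The difference between the classes was tested in a joint fit of 11131 genes and called for 1.94% of them, above 0 for 136 (1.22%) and below 0 for 80 (0.719%). Of the leading genes, Nr4a2 (difference 1.19 ± 0.29), Tiparp (1.16 ± 0.20), Ndfip2 (0.66 ± 0.11) and Homer1 (0.55 ± 0.10) rose more in L6 CT nuclei, with adjusted p-values of 0.0179, 0.000301, 0.000205 and 0.00105 by edgeR, and Cpeb3, Ntrk2 and Ina did so by 0.43, 0.33 and 0.56. Bdnf (difference 0.37 ± 0.26) and Cyr61 (0.92 ± 0.44) were not called different, nor were 28 of 29 tested immediate early genes outside the rule. In simulated counts, the joint fit recovered 62% of genes whose change differed 2-fold and 35% at 1.5-fold. A gene not called may therefore still differ between the classes. Of 28 tested later activity genes, 5 differed upwards (Tiparp, Homer1, Spred1, Nrn1 and Ntrk2) and 1 downwards (Blnk).

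Of the genes whose difference in log2 change was below 0, St6galnac5 (-1.30 ± 0.16) and Sdk1 (-0.89 ± 0.11) fell in L6 CT nuclei and were called higher in upper-layer IT nuclei. At the other end, Meis2, a homeodomain transcription factor, was at 362 ± 77.2 and 406 ± 49.0 CPM in L6 CT nuclei, which did not pass, and fell from 134 ± 66.2 to 65.3 ± 45.1 CPM in upper-layer IT nuclei (joint scaling, SD, n = 6), a difference of 1.29 ± 0.12. Iqgap2, a cytoskeletal scaffold, and Rgs6, a regulator of G protein signalling, likewise fell in upper-layer IT nuclei and did not pass in L6 CT nuclei (differences 1.10 ± 0.11 and 0.78 ± 0.087). Of 29 glutamate receptor genes tested for a difference, 5 differed upwards (Gria3, Neto2, Cacng3, Gria2 and Grin2a) and 2 downwards, Grm7 among them. Upwards here means a log2 change larger in L6 CT than in upper-layer IT nuclei, not a rise in L6 CT nuclei. Cacng3, Gria2 and Grin2a were called higher in L6 CT nuclei, and Gria3 and Neto2 were not. The makeup of each class by state was not tested.

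**Figure D5:**
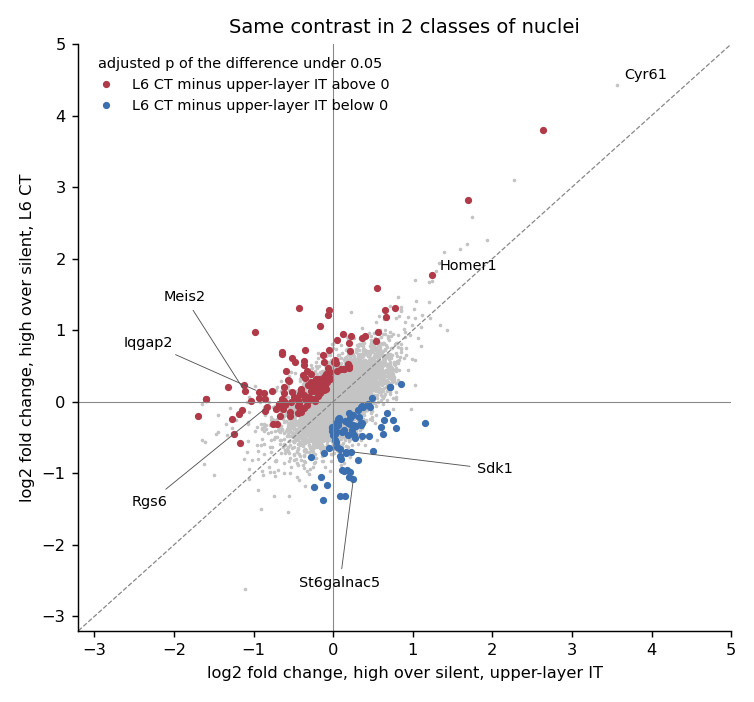
Log2 fold change of high over silent nuclei in upper-layer IT (x axis) and L6 CT nuclei (y axis); each point is a gene tested in both, coloured where the test of the difference passed, and the dashed line marks equal change. Meis2, Iqgap2 and Rgs6 lie left of 0 near the horizontal axis, and St6galnac5 and Sdk1 lie below it.

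Few differences with training passed in the change from silent to high nuclei. Of 9293 genes tested for a difference between trained and control mice, 1 was called (0.0108%), 0 lower, and 395 had an unadjusted p under 0.05 by edgeR; DESeq2 called 0. The called gene was Il1rapl2, a synaptic adhesion gene of the interleukin 1 receptor family, which was also 1 of the 2 genes listed here as markers of L5 IT nuclei. Whether nuclei of that class take part in the difference was not tested. In control mice 1, 3 and 5 it went from 62.1 to 17.7, from 25.5 to 10.5 and from 138 to 41.7 CPM, a fall in each. In trained mice 2 and 4 it rose from 46.2 to 74.1 and from 19.7 to 110.2 CPM, and in trained mouse 6 it fell from 44.5 to 19.1 CPM. The difference in log2 change was 2.40 ± 0.43 (adjusted p = 0.0392 by edgeR), and the call ended without any of mice 1, 2, 4 or 5 (adjusted p from 0.0577 to 0.823). None of the 25 leading genes reported passed by edgeR, with 4 at an unadjusted p under 0.05 and 0.876 as their smallest adjusted p. In simulated counts, the fit for training recovered 33% of genes changed 2-fold and 11% of those changed 1.5-fold. The fit of high against silent nuclei recovered 94% and 57%. A gene not called may therefore still differ with training.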

How the data were processed

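The deposited matrix holds raw UMI counts of 6 mice, with a shallow and a deep sequencing run of each mouse joined, so n counts mice. Nuclei were assigned to mice by barcode suffix, per the labels' design text. The submitters' processing notes name Cell Ranger 4.0.0 and mm10. Whether intronic reads and strand entered the counting is not stated there. The lists of barcodes and genes came with the matrix. The gate, the 13 rule genes, the compared classes and the gene lists were chosen with earlier results of these data known, and no count over a list is independent support.

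From these counts, each gated nucleus was thinned without replacement to 2000 UMIs to set its state (seed 1); sums for the tests used all UMIs. Sums per mouse and state were fitted with edgeR 4.0.16 in R 4.3.3 (quasi-likelihood test, TMM scaling, filterByExpr), with mouse as a block because both sums come from the same animal, with Benjamini-Hochberg adjustment of p-values over all tested genes. Differences with training or between classes were interaction terms. The 13 rule genes, the gate genes and 3 genes overlapping a rule gene (Prdx2, Gm8225 and Ergic1) were left out of the results. The error beside a log2 fold change is its standard error, and spread is between mice. Doublets were called per mouse with Scrublet in scanpy 1.11.5 (expected share 6%) and kept, except in an alternative. The fits were checked on simulated counts. Gene positions came from GENCODE M21 (31011 of 31053 IDs matched). Other tools were DESeq2 1.42.0, limma 3.58.1, Python 3.11.15, numpy 2.4.6, scipy 1.17.1 and pandas 2.3.3.

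Genes were named by rule: the 14 higher and 12 lower of smallest p past 0.05 whose 6 mice agreed in direction, leaving out predicted or clone names; every passing member of the immediate early and delayed lists; the 3 members of smallest p of each other list; and, for each interaction, 3 genes of smallest p above and below 0. Some genes that the rule names are not reported here. Further members of lists are given with their values.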

Additional observations from a re-analysis of the deposited data

Results flagged for a closer look

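Of the 216 genes called for a difference between the classes and the 1 called for training, 6 named by rule are given here; each was called by a test of the difference itself. Between L6 CT and upper-layer IT nuclei, the high-silent log2 change differed by 1.29 for Meis2, 1.10 for Iqgap2 and 0.78 for Rgs6, and by -1.30 for St6galnac5 and -0.89 for Sdk1. Between trained and control mice it differed by 2.40 for Il1rapl2.

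Single mice stood apart from the other 5 by Dixon's test in 4 of 60 groups of 6 values checked, where chance flags about 1 in 20. Control mouse 5 had the highest Rheb level in silent nuclei, 83.3 CPM against 63.4 to 68.3 CPM in the others. The same mouse had the lowest Blnk level in high nuclei, 16.7 CPM against 26.1 to 30.0 CPM. Trained mouse 4 had the lowest Grm5 level in silent nuclei, 807 CPM against 1017 to 1108 CPM. In high nuclei the mitochondrial share of UMIs was 0.0429% in trained mouse 2, against 0.0118 to 0.0217%.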

How the results depend on the processing

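The number of genes called higher or lower in L6 CT nuclei was 623 and 412 of 8460 tested. On the same 8460 genes it was 304 and 145 with DESeq2, and 289 and 158 with no replicate block. The other settings tested other numbers of genes. Sums of thinned counts gave 152 and 84 of 2698 tested, and silent nuclei matched on UMIs 331 and 158 of 7721. Foxp2 of at least 10 gave 237 and 114 of 5211, and high from 5 UMIs 478 and 206 of 6323. No filter on low counts gave 486 and 527 of 21692. The counts ran from 396 to 611 and from 245 to 431 when each mouse was left out in turn. With fewer genes and UMIs the thinned sums tested less; for the other settings the cause was not tested. Of 85 named genes, whose alternatives gave 1463 values, 86 values lost the call, 1 gained it and 2 changed sign (Kcnq5 to 0.024 and Cacna2d3 to 0.28 with matched silent nuclei). Of the 25 leading genes reported, Epha6 lost the call with matched silent nuclei and Sphkap with thinned sums (-0.44, adjusted p = 0.131 by edgeR). Another random draw called 730 and 508 genes, of which 494 and 299 were among the 623 and 412. For the difference with training, 1 higher and 0 lower became 0 higher with DESeq2, with high from 2 UMIs and without doublets, 8 and 1 with no filter, 0 and 1 with thinned sums, and 0 to 2 higher and 0 lower without each mouse. For the difference between classes, 136 and 80 became 58 and 26 with thinned sums, 103 and 177 with no filter, and 69 to 110 and 48 to 93 without each mouse. The trained minus control share (-0.934 percentage points) was 2.13 with Foxp2 of at least 10 and -5.97 to 3.84 without each mouse. In the match on UMIs, trained mouse 4 had only 68 silent nuclei for 83 high ones. Depth limits the genes that could be tested to 8460, from sums of 41 to 88 high nuclei per mouse.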

Other observations

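Of the activity genes with too few counts to be tested, 9 of 12 immediate early and 8 of 10 later members had a higher mean in high nuclei. Of tested genes, 48.6% had a fitted log2 fold change above 0, and no such share was taken over genes with too few counts. Some of these means rest on few UMIs, such as Atf3 with 0 in silent and 3 in high nuclei. The 4 below were chosen after their values were seen and are given as values. Egr2, a zinc finger factor of the Egr family, was at 0.556 to 3.04 CPM (median 1.69) in the 6 silent sums and at 6.94 to 13.2 CPM (median 10.2) in the 6 high sums, from 19 and 49 UMIs. Ptgs2, which encodes cyclooxygenase 2, was at 0.824 to 5.00 and 7.72 to 31.2 CPM, and Gadd45g, a relative of Gadd45b, at 3.02 to 7.78 and 4.41 to 29.5 CPM. Each was higher in the high nuclei of 6 of 6 mice. Inhba, a subunit of activin that activity is known to induce in other neurons, was at 5.67 to 8.30 CPM in silent and 0 to 10.4 CPM in high nuclei and was higher in the high nuclei of 1 of 6 mice.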
